A study of Drosophila melanogaster with 15 samples.

Results

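Sorted midgut progenitors labelled as overexpressing dpn (dpn OE) were compared with those labelled as carrying RNAi against ttk (ttk-RNAi), using 6 of the 15 RNA-seq libraries of the series. Genes with an FPKM of at least 1 in at least 3 of these 6 libraries were taken, which left 7771 of the 17558 gene identifiers in the table. FPKM is the number of fragments assigned to a gene relative to its length and to the total of its library. The cells carried GFP and were sorted by FACS, about 10000 per sample, from dissociated midguts of Drosophila melanogaster on day 7 of adult life, and their RNA was amplified before sequencing. Each group held 3 libraries. The labels give the dpn OE genotype only as dpn overexpressed and the ttk-RNAi genotype only by that name, with no driver, construct, sex of the flies, batch or sorting day. Whether replicates were separate flies or separate sorts is not in the labels, so p-values speak only to the spread among these libraries, and that spread may be technical. The 3 wild-type libraries (Ctrl) are given beside some values for scale and enter no test here, except that an alternative fit of all 15 libraries used their spread.

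The adult fly midgut is renewed by stem cells that divide to give enteroblasts, which become absorptive enterocytes, and enteroendocrine cells, which secrete peptide hormones. Notch signalling directs daughters towards the enterocyte fate, and its transcriptional output includes the E(spl) genes, which encode bHLH repressors related to Hairy. Deadpan, the product of dpn, is another repressor of that family and is best known for maintaining self-renewal in neuroblasts, the stem cells of the fly nervous system. Tramtrack, the product of ttk, is a BTB zinc-finger repressor that opposes neural fates, and in midgut progenitors it is known to restrain enteroendocrine specification.

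Libraries of both groups differed in depth. The estimated total was 25.9 to 33.4 M reads in dpn OE and 51.1 to 56.0 M reads in ttk-RNAi, and 60.8% to 65.6% of it was assigned to genes. For a gene of 1 kb, 3 reads were worth 0.0898 to 0.116 FPKM in dpn OE and 0.0536 to 0.0587 FPKM in ttk-RNAi, so a gene with few reads was seen less precisely in dpn OE. Such figures cover counting error only, since the RNA was amplified and reads carry no molecular identifiers. Pearson correlations of log2(FPKM + 1) across genes were 0.980 to 0.990 within dpn OE, 0.994 to 0.996 within ttk-RNAi and 0.772 to 0.789 between the groups. The groups stood far apart, and the dpn OE libraries were the less alike among themselves.

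Differences are given as dpn OE minus ttk-RNAi on the log2(FPKM + 1) scale, which understates the change of genes with low values, and folds are ratios of group mean FPKM. At an adjusted p under 0.05, 6289 of the 7771 genes were called, or 80.9%. Of these, 3938 (50.7% of the genes tested) were higher in dpn OE and 2351 (30.3%) in ttk-RNAi. The balance depended on the scaling of the columns. With columns scaled to a common median, 6127 genes (78.8%) were called, 3237 (41.7%) higher in dpn OE and 2890 (37.2%) higher in ttk-RNAi, and with median-of-ratios scaling the split was 2929 against 3168. The median difference over all genes tested was 0.34 as deposited, 0.08 with a common median and -0.02 with median-of-ratios scaling. A direction is therefore given below only for genes called the same way as deposited and with a common median, unless it is said otherwise. That held for 5588 genes (71.9%), of which 3237 (41.7%) were higher in dpn OE and 2351 (30.3%) in ttk-RNAi, and the libraries of both groups did not overlap for 82.1% of the genes tested. Because so many genes were called, counts of list members below use a size rule chosen after seeing the data, namely a call and a difference of at least 1 on log2 with both scalings. It was met by 1153 genes (14.8%) in the direction of dpn OE and by 1384 genes (17.8%) in the direction of ttk-RNAi. Counts of list members below are to be read beside these shares. A gene under 1 FPKM in each library of 1 group could pass the filter only through the 3 libraries of the other. Its direction was then set by the filter, and such genes are among the members counted below.

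**Figure D1:**
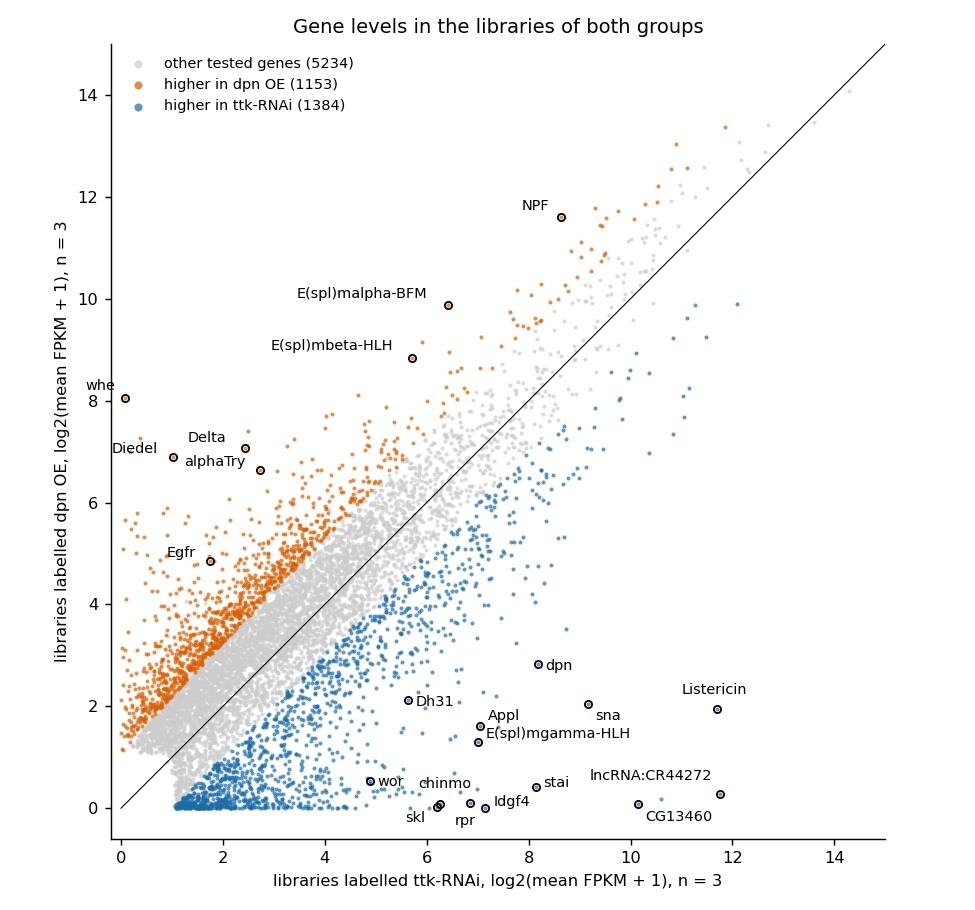
Group mean levels on log2(mean FPKM + 1), with ttk-RNAi on the horizontal and dpn OE on the vertical axis, for the 7771 genes tested. Orange points mark the 1153 genes and blue points the 1384 genes that met the size rule, grey points the other genes, and the line marks equal levels. Circled genes are named in the text, and many genes of ttk-RNAi lie along the lower edge, near 0 in dpn OE.

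The genes that name the groups were read first. The gene ttk (FBgn0003870) was at 24.2, 21.1 and 16.1 FPKM in dpn OE and at 113, 87.0 and 100 FPKM in ttk-RNAi, so it was lower in each dpn OE library than in any library labelled with RNAi against it. Its mean was 20.5 ± 4.09 (SD, n = 3) against 100 ± 12.9 (SD, n = 3), 4.88-fold higher in ttk-RNAi (difference -2.24, SE 0.16, adjusted p = 4.5e-06), and Ctrl was at 30.2. The gene dpn (FBgn0010109) was at 6.48, 7.16 and 4.65 FPKM in libraries labelled dpn OE, and at 268, 311 and 290 FPKM in ttk-RNAi. The libraries labelled for overexpression of the gene were thus the lower group, and ttk-RNAi was 47.5-fold higher (difference -5.37, adjusted p = 4.4e-08). In Ctrl dpn was at 2.91, 1.45 and 2.75 FPKM, below each dpn OE library. Of the exon bases of dpn, 59.3% are shared with an antisense gene, and reads were assigned without regard to strand, so its values are uncertain. Whether reads came from a transgene, a hairpin or the endogenous gene cannot be told apart, and each library goes by its label below. The receptor gene N was at 38.6 ± 7.29 in dpn OE and 30.0 ± 2.41 in ttk-RNAi and was not called (adjusted p = 0.064).

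Factors of neuroblasts were higher in ttk-RNAi for most of the members tested. Of 22 neuroblast identity factors in the list 13 were tested. The size rule was met by 8 in the direction of ttk-RNAi and 1 in that of dpn OE, beside 17.8% and 14.8% of all genes. The label gene dpn, whose values are uncertain, is 1 of those 8. The median difference of the list was -1.33 against 0.34 over all genes. The gene sna, which encodes the zinc-finger repressor Snail, was at 2.22, 4.15 and 3.07 FPKM in dpn OE and at 666, 487 and 562 FPKM in ttk-RNAi. The groups lay far apart, with ttk-RNAi 182-fold higher (difference -7.12, SE 0.18, adjusted p = 4.3e-08), and Ctrl was at 6.72. Its relative wor (worniu), also of the Snail family and used in neuroblasts, was at 0.451, 0.445 and 0.472 FPKM against 30.9, 27.9 and 26.8 FPKM. That made ttk-RNAi 62.6-fold higher (adjusted p = 3.4e-08). Another member of this family, scrt (scratch), which promotes neuronal fates, was at 0.0507 against 12.9 FPKM. The zinc-finger gene klu, known from intermediate neural progenitors and from enteroblasts, was at 19.5 against 122 FPKM, and pros (prospero), a homeodomain factor of neural daughters and of enteroendocrine cells, at 0.560 against 8.08 FPKM. In Ctrl klu was at 35.65 FPKM and pros at 8.88 FPKM, the latter close to ttk-RNAi. Only the ETS factor gene pnt (pointed) met the rule in the other direction, at 12.4, 10.4 and 14.4 FPKM in dpn OE and 3.33, 2.90 and 3.24 FPKM in ttk-RNAi. With both scalings 3 members were called higher in dpn OE, among them insc at 30.6 against 17.4 FPKM, below the size rule. The bHLH gene ase (asense), a defining neuroblast marker, was at most 0.0563 FPKM in any of the 6 libraries, so that member was near 0 in both groups.

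Of 20 factors that mark time in neuroblast lineages 6 were tested, and 3 met the rule, each higher in ttk-RNAi, beside 17.8% of all genes. The BTB factor gene chinmo, which marks early neuroblasts and is a target of JAK/STAT signalling in testis, was at 0.0459, 0.0573 and 0.0759 FPKM in dpn OE and at 80.4, 71.1 and 74.2 FPKM in ttk-RNAi. It was near 0 in every dpn OE library and 1260-fold higher in ttk-RNAi (difference -6.17, SE 0.10, adjusted p = 7.1e-09), and Ctrl was at 0.282 FPKM. The zinc-finger gene mamo was at 10.5 against 36.1 FPKM, and cas (castor) at 0.167 against 1.44 FPKM. Called the other way, below the size rule, were Eip93F at 18.8 against 7.97 FPKM and the RNA-binding factor gene lin-28 at 38.2 against 18.6 FPKM.

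The asymmetric division machinery, which segregates fate determinants between daughters, met the size rule at close to the share of all genes in each direction. Of 23 entries 22 were tested, and 3 met the rule in each direction, beside 14.8% and 17.8% of all genes, with a median difference of 0.36. Higher in dpn OE were pon (partner of numb, 5.88 against 0.720 FPKM), loco, a regulator of G-protein signalling (84.2 against 21.7), and the kinesin gene Khc-73 (10.4 against 2.30). Higher in ttk-RNAi were the cortical scaffold genes dlg1 (6.11 against 21.0) and cno (2.02 against 5.88) and the RNA-binding gene stau (8.34 against 17.7). The adaptor gene mira (miranda) was not called, at 31.1 ± 10.5 against 19.9 ± 2.36.

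Genes of the Notch pathway moved in both directions. Of 24 core components 22 were tested, and 4 met the size rule in each direction, counts close to the 14.8% and 17.8% of all genes, with a median difference of -0.04 against 0.34 over all genes. The ligand gene Delta was at 148, 149 and 104 FPKM in dpn OE and at 4.23, 3.94 and 5.05 FPKM in ttk-RNAi. Every dpn OE library was above every ttk-RNAi library, and the fold was 30.4 (difference 4.63, SE 0.16, adjusted p = 1.1e-07). Ctrl spanned 14.8 to 161 FPKM. The ubiquitin ligase gene neur (neuralized), which activates the ligand in the signal-sending cell, lay the opposite way, at 9.19, 6.13 and 4.04 FPKM against 65.6, 60.1 and 64.3 FPKM (9.82-fold, adjusted p = 4.6e-06). Of its exon bases 38.8% are shared with other genes of the table. The glycosyltransferase gene fng (fringe), which tunes which ligand the receptor answers to, was higher in dpn OE (22.1 against 4.38 FPKM), as were dx (deltex, 10.5 against 1.54), a regulator of receptor trafficking, and pen-2 (4.54 against 1.08), a gamma-secretase subunit. The metalloprotease gene kuz (kuzbanian), which cleaves the receptor, was higher in ttk-RNAi (26.0 against 82.0 FPKM), as were the ubiquitin ligase gene Nedd4 (7.94 against 17.6) and the corepressor gene CtBP (59.7 against 150).

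The E(spl) complex, which lies at 3R:25997621-26049911 (BDGP6.54) and holds 13 genes in 52.3 kb, was divided by gene. On the list of 13 E(spl) bHLH, corepressor and related HES genes 11 were tested. The rule was met by 2 in the direction of dpn OE and 5 in that of ttk-RNAi, beside 14.8% and 17.8% of all genes. The repressor gene E(spl)mbeta-HLH was at 499, 477 and 402 FPKM in dpn OE and 52.8, 47.0 and 53.4 FPKM in ttk-RNAi, 8.99-fold higher in dpn OE (adjusted p = 1.1e-07). E(spl)m3-HLH, of the same family, was at 203, 183 and 141 FPKM against 12.8, 13.7 and 18.8 FPKM, 11.7-fold higher in dpn OE. In Ctrl they were at 1042, 482 and 463 FPKM and at 1122, 345 and 659 FPKM, so the first overlapped dpn OE and the second lay above it. E(spl)mgamma-HLH, which neuroblasts are known to express, was at 1.44, 1.46 and 1.48 FPKM in dpn OE and 133, 129 and 121 FPKM in ttk-RNAi. That was 87.4-fold higher in ttk-RNAi (difference -5.71, SE 0.09, adjusted p = 6.6e-09), while Ctrl was at 5.40 FPKM. E(spl)m8-HLH was also higher in ttk-RNAi, at 0.286 ± 0.0316 against 19.4 ± 0.981 (SD), and E(spl)m7-HLH at 1.38 ± 0.346 against 27.2 ± 4.09 (SD). For these genes Ctrl was nearer to ttk-RNAi than to dpn OE, unlike for E(spl)mgamma-HLH. It was at 13.2 ± 5.91 for E(spl)m8-HLH and 28.4 ± 8.28 for E(spl)m7-HLH (SD). The related gene Hey, a Notch target in neurons, was listed at 0 in each dpn OE library and at 6.10, 6.33 and 5.79 FPKM in ttk-RNAi. The list of 11 Bearded family entries, whose products antagonise Neuralized, also holds Kaz-m1 of this complex, a gene of the Kazal inhibitor family and not a Bearded gene. Of the list 3 were tested, Kaz-m1 among them, and the other two met the rule, 1 in each direction. E(spl)malpha-BFM was at 930, 997 and 898 FPKM in dpn OE and 76.0, 84.5 and 92.6 FPKM in ttk-RNAi, 11.2-fold higher in dpn OE, and E(spl)m6-BFM was at 0.518 against 4.75 FPKM, 9.18-fold higher in ttk-RNAi. Their Ctrl means, 2475 and 8.47 FPKM, were above the means of both groups. The corepressor gene gro (groucho), the last of the 13 genes counted here, was at 19.7 against 54.7 FPKM. E(spl)mdelta-HLH was higher in ttk-RNAi by less than the size rule (0.318 against 1.39 FPKM), and Kaz-m1 was higher in dpn OE (3.93 against 2.23 FPKM), with 57.0% of its exon bases shared. The other 3 genes, E(spl)m2-BFM, E(spl)m4-BFM and E(spl)m5-HLH, were under the filter. In order along the chromosome, the genes higher in dpn OE lay between genes higher in ttk-RNAi on both sides.

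**Figure D2:**
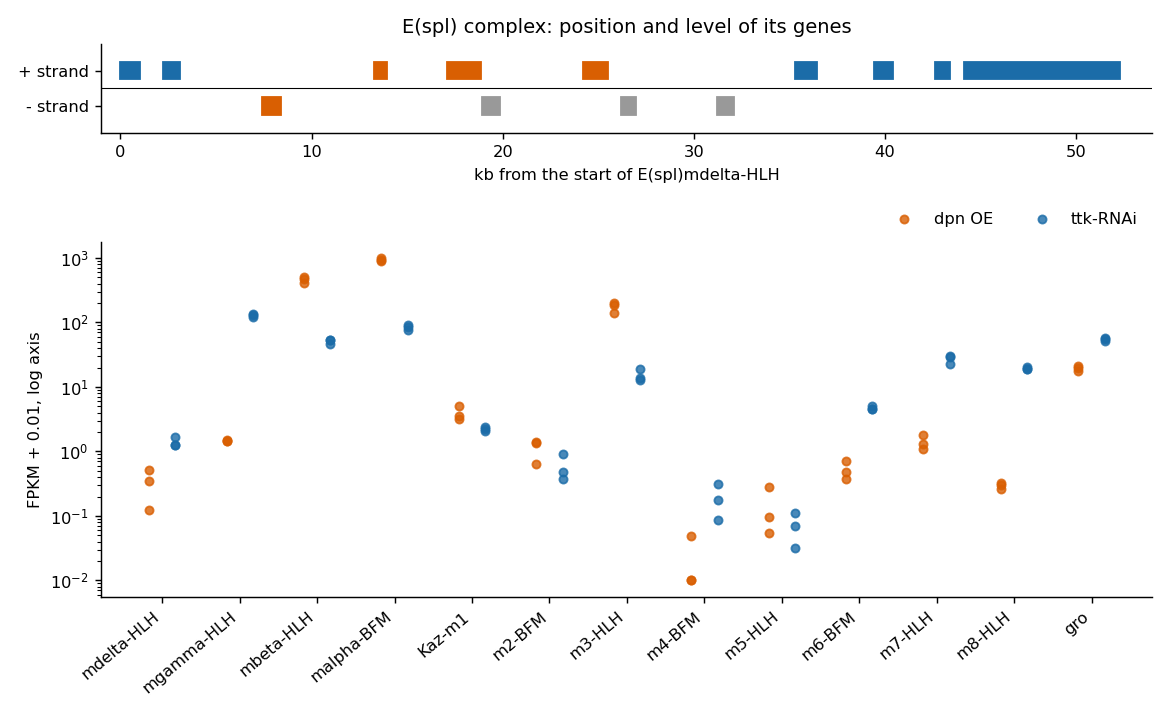
The upper panel places the 13 genes of the E(spl) complex on their strands by distance in kb, in orange where higher in dpn OE with both scalings, in blue where higher in ttk-RNAi, and in grey where not tested. The lower panel gives FPKM + 0.01 on a log axis in each library, with genes in the same order, and shows mbeta, malpha and m3 high in dpn OE and mgamma, m7 and m8 high in ttk-RNAi.

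Endocrine fate factors were higher in ttk-RNAi, whereas hormones lay in both directions. Of 25 proneural and endocrine fate factors 11 were tested, and 6 met the rule, each in the direction of ttk-RNAi, beside 17.8% of all genes. The median difference was -1.05. ttk is itself on this list. The proneural gene sc (scute), which drives endocrine specification, was at 0.510, 0.899 and 0.750 FPKM against 3.05, 3.02 and 3.32 FPKM, and dimm, a bHLH regulator of secretory capacity in peptide cells, at 0.445, 0.393 and 0.736 against 7.92, 7.62 and 7.68 FPKM. Both groups were separate for each gene. The gene phyl (phyllopod), whose product helps degrade Tramtrack, was at 0.0629, 0.0414 and 0 against 2.70, 2.42 and 2.68 FPKM, 74.8-fold with a 95% counting interval of 32.0 to 230 from the 5 reads of dpn OE. Of 20 gut peptide hormones 11 were tested, and 2 met the rule in each direction, counts close to the 14.8% and 17.8% of all genes. The hormone gene NPF was at 3000, 2455 and 3852 FPKM in dpn OE and 417, 382 and 390 FPKM in ttk-RNAi (7.83-fold, adjusted p = 9.5e-07), and Orcokinin at 442, 299 and 448 against 74.4, 113 and 115 FPKM. Each Ctrl library was above both groups, NPF at 6827, 55989 and 26068 FPKM and Orcokinin at 2633 to 2958 FPKM. Dh31 lay the opposite way, at 1.85, 5.05 and 3.14 FPKM against 43.2, 51.8 and 51.3 FPKM (14.6-fold, adjusted p = 3.8e-06), as did CCHa1 at 9.70 against 44.3 FPKM. Tachykinin (Tk) was at 68.8 against 111 FPKM, and AstC, at 254 ± 56.7 against 264 ± 46.0, was not called. These are bulk values, and fewer cells of a type and less RNA per cell cannot be told apart.

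Genes for the release and processing of peptides that met the rule were higher in ttk-RNAi. Of 31 entries 26 were tested, and 13 met the rule, each higher in ttk-RNAi, beside 17.8% of all genes. The median difference was -1.20 as deposited. The synaptotagmin gene Syt4 was at 0.236, 0.172 and 0.357 FPKM in dpn OE and 45.2, 47.9 and 45.3 FPKM in ttk-RNAi (181-fold, adjusted p = 1.8e-08). Syt7 was at 0.254 against 15.3 FPKM and Cadps, a priming factor of dense-core vesicles, at 0.481 against 13.2 FPKM. The SNARE partner gene Rop (Sec1/Munc18 family) was at 16.8 against 74.4 FPKM. The prohormone convertase gene amon was called higher in dpn OE, at 7.32, 5.56 and 8.48 FPKM against 2.61, 2.69 and 3.29 FPKM, below the size rule with a common median. Of 31 neuronal genes 19 were tested, and 14 met the rule in the direction of ttk-RNAi and 1 in that of dpn OE. Among all genes 17.8% and 14.8% met it. The median difference of the list was -1.93. The microtubule regulator gene stai (stathmin) was at 0.387, 0.251 and 0.347 FPKM against 217, 335 and 294 FPKM (858-fold, difference -7.71, adjusted p = 1.8e-08). Appl, the fly amyloid precursor-like gene of neurons, was at 2.07 ± 0.203 against 132 ± 8.90 (63.7-fold), and nrv3, a sodium pump subunit of the nervous system, at 10.5 against 423 FPKM. The pan-neuronal RNA-binding gene elav was at 5.45 ± 0.335 against 8.30 ± 0.319, a smaller gap of 1.52-fold (adjusted p = 0.0014). The 1 member higher in dpn OE was the channel gene Ih, at 16.3 against 4.06 FPKM.

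**Figure D3:**
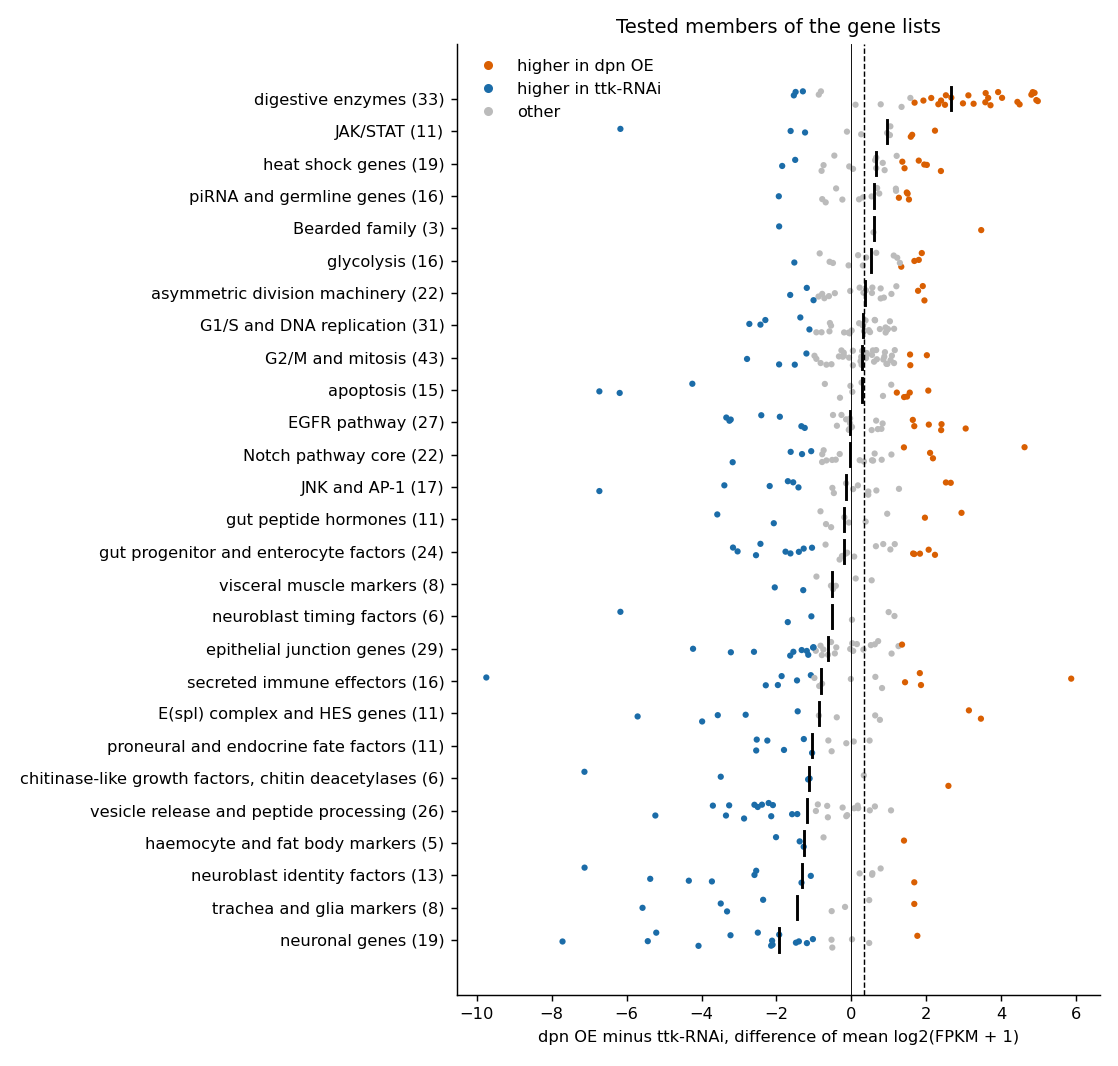
Differences of the tested members of 27 gene lists, as dpn OE minus ttk-RNAi of mean log2(FPKM + 1), with lists ordered by their median and the number tested in brackets. Each point is a gene, coloured where it met the size rule; short bars are list medians and the dashed line is the median of all genes tested, 0.34. Digestive enzymes lie furthest to the right and neuronal genes furthest to the left by median.

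The EGFR pathway, which drives stem cell division and survival in the midgut, had members in both directions. The 27 entries were all tested, 6 met the rule in the direction of dpn OE and 7 in that of ttk-RNAi, beside 14.8% and 17.8% of all genes tested, and the median difference was -0.03. The receptor gene Egfr was at 30.1, 35.9 and 18.2 FPKM in dpn OE and 2.38, 2.42 and 2.32 FPKM in ttk-RNAi (11.8-fold, difference 3.05, SE 0.22, adjusted p = 5.0e-06). Its exchange factor gene Sos was at 5.58 against 1.10 FPKM, and the ubiquitin ligase gene Cbl, which downregulates the receptor, at 106 against 19.3 FPKM. The feedback inhibitor gene aos (argos), a secreted ligand sink, was at 20.6 against 4.13 FPKM, and edl, which holds back the ETS factor Pointed, at 123 against 22.2 FPKM. The rhomboid protease gene rho, which releases active ligand, was at 14.5, 15.6 and 14.6 FPKM against 151, 135 and 155 FPKM, 9.89-fold higher in ttk-RNAi (adjusted p = 5.4e-08). Its relatives ru (roughoid), at 0.0237 against 2.85 FPKM, and stet, at 0.145 against 5.12 FPKM, were higher in ttk-RNAi as well, with the ligand gene grk (gurken), best known from the oocyte, at 1.27 against 21.9 FPKM. The inhibitor gene kek1 was at 0.657 against 14.9 FPKM, its relative kek2 at 0.0139 against 1.56 FPKM, and cic, a repressor relieved by this pathway, at 11.3 against 27.5 FPKM.

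The JAK/STAT pathway, which relays cytokine signals of the Unpaired family, had members in both directions too. Of 13 entries 11 were tested and 3 met the rule in each direction, beside 14.8% and 17.8% of all genes. The median difference was 0.96. The transcription factor gene Stat92E was at 95.6, 82.5 and 63.4 FPKM in dpn OE and 15.6, 16.0 and 16.7 FPKM in ttk-RNAi (difference 2.23, SE 0.15, adjusted p = 2.9e-06). The feedback inhibitor gene Socs36E was at 397 ± 74.8 against 131 ± 16.8 (3.04-fold), and Socs44A at 42.0 ± 11.2 against 12.6 ± 0.211 (3.32-fold). The receptor gene dome (19.9 against 9.22 FPKM) and the kinase gene hop (4.09 against 1.61 FPKM) were called higher in dpn OE, below the size rule. The cytokine gene upd3 was at 77.9, 107 and 110 FPKM in dpn OE and 269, 333 and 304 FPKM in ttk-RNAi, 3.07-fold higher in ttk-RNAi (adjusted p = 1.9e-05). The Ctrl mean was 77.5 FPKM. Socs16D and chinmo were the other members higher in ttk-RNAi.

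In the JNK pathway, a stress kinase cascade, 17 of 21 entries were tested. The rule was met by 2 in the direction of dpn OE and 6 in that of ttk-RNAi, beside 14.8% and 17.8% of all genes. The ligand gene egr (eiger, of the TNF family) was at 43.3, 40.3 and 29.2 FPKM against 5.61, 4.65 and 4.92 FPKM, and the adaptor gene Traf4 at 28.2 against 4.07 FPKM, both higher in dpn OE. The feedback phosphatase gene puc was called in the same direction at 149 against 61.2 FPKM, under the size rule. Higher in ttk-RNAi were the JNK kinase gene hep (17.9 against 49.4 FPKM), the Fos gene kay (76.4 against 347), the matrix metalloprotease gene Mmp1 (7.87 against 24.8) and the stress gene Gadd45 (39.1 ± 10.8 against 415 ± 88.7).

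The cell death genes of the hid, grim, rpr and skl cluster, at 3L:18167745-18439942 (BDGP6.54, 272 kb), encode proteins that block the caspase inhibitor Diap1. Among them 3 were nearly silent in dpn OE and high in ttk-RNAi. The gene rpr (reaper) was at 0.0856, 0.0844 and 0.0332 FPKM in dpn OE and 88.7, 132 and 121 FPKM in ttk-RNAi, a ratio of 1679 with a 95% counting interval of 719 to 5170 from 5 reads. For skl (sickle), 2 reads were seen over the dpn OE libraries, against 70.6, 79.8 and 68.6 FPKM in ttk-RNAi, a ratio of 5054 with an interval of 1399 to 41736. The gene grim was listed at 0 in each dpn OE library and at 18.0 ± 1.79 FPKM (SD, n = 3) in ttk-RNAi, with 75.9% of its exon bases shared with other genes. In Ctrl these 3 genes were at 2.07, 0.441 and 0.227 FPKM. The neighbour hid lay the other way, at 9.38, 6.97 and 3.63 FPKM in dpn OE against 0.730, 0.643 and 0.876 FPKM in ttk-RNAi (8.88-fold, adjusted p = 0.00013). Of the 16 apoptosis genes 15 were tested, 5 met the rule in the direction of dpn OE (3 without dpn OE replicate 3) and 3 in that of ttk-RNAi. Among all genes 14.8% and 17.8% met it. The initiator caspase gene Dronc was higher in dpn OE at 82.4 against 30.3 FPKM, and the effector caspase gene Drice at 63.2 against 21.6 FPKM. The inhibitor gene Diap1 differed by 1.24-fold, at 47.9 ± 1.06 against 59.5 ± 3.48.

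**Figure D4:**
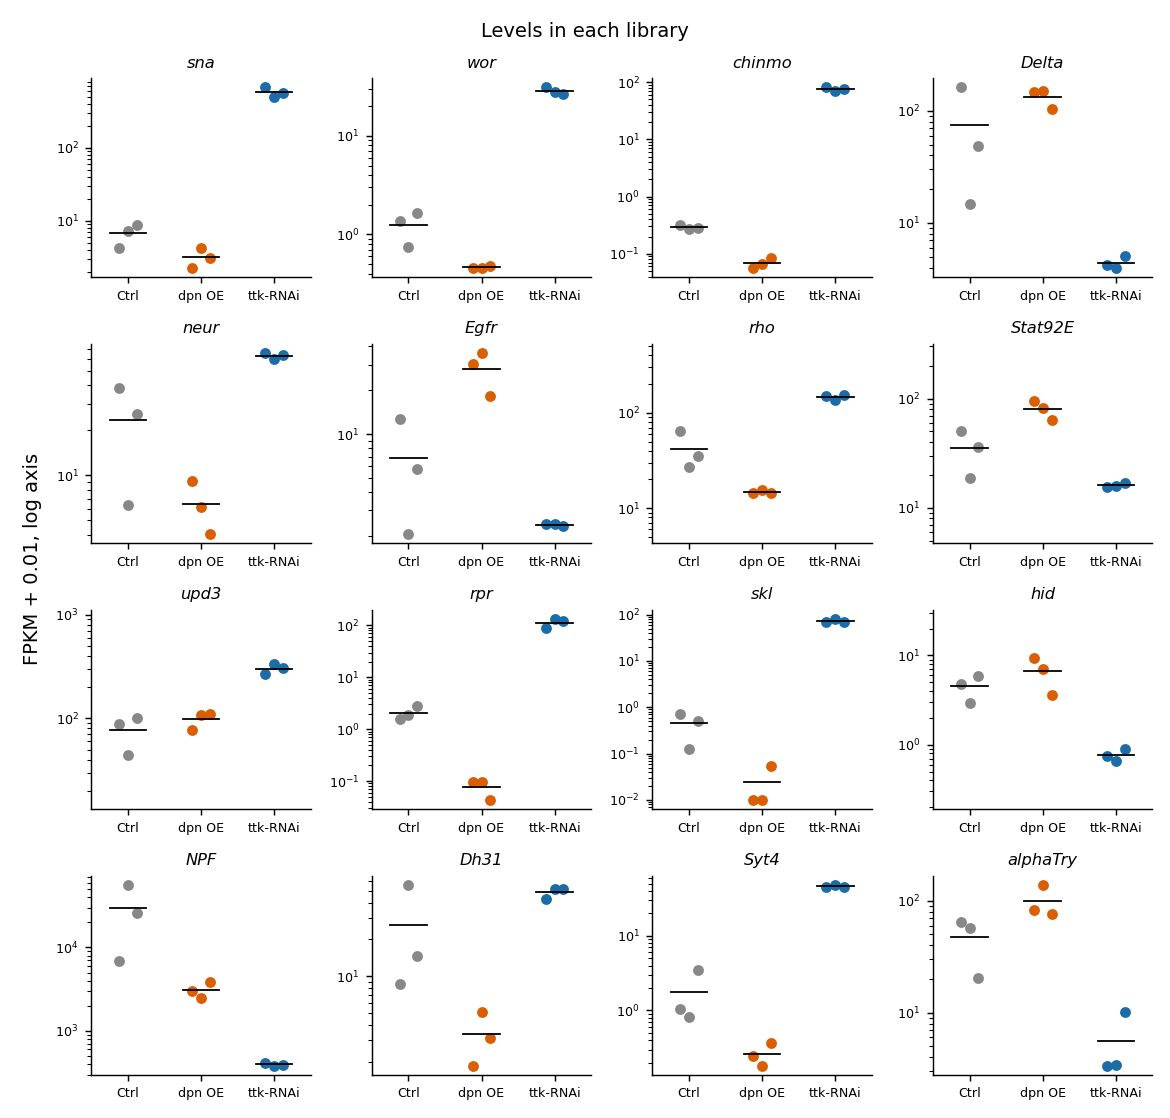
FPKM + 0.01 on log axes in each library for 16 genes, with Ctrl in grey, dpn OE in orange and ttk-RNAi in blue, and a bar at the mean of each group of 3. Each gene has its own axis, and for each the dpn OE and ttk-RNAi libraries do not overlap; rpr, skl and chinmo are near 0 in dpn OE and hid lies the opposite way to rpr and skl.

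Cell cycle genes as a group stayed close to the median of all genes, with a few regulators apart. Of 37 G1/S and replication entries 31 were tested, and 5 met the rule in the direction of ttk-RNAi and 0 in that of dpn OE (1 without ttk-RNAi replicate 3). Among all genes 17.8% and 14.8% met it. The median difference of the list was 0.30. Smaller differences in the direction of dpn OE were called with both scalings for 9 of the 31, beside 41.7% of all genes. Of 48 entries of G2/M and mitosis 43 were tested, with 3 meeting the rule in the direction of dpn OE and 4 in that of ttk-RNAi. Their median difference was 0.29, and with both scalings 15 were called higher in dpn OE and 10 in ttk-RNAi. The phosphatase gene stg (string, Cdc25), which triggers mitosis, was at 11.4, 12.3 and 12.2 FPKM in dpn OE and 97.2, 80.6 and 87.9 FPKM in ttk-RNAi (7.40-fold, adjusted p = 1.4e-07). Cyclin E (CycE), which triggers S phase, was at 0.488 ± 0.197 against 8.79 ± 0.661 (18.0-fold), E2f1 at 18.7 against 49.5 FPKM, and the other Cdc25 gene, twe, at 6.58 against 27.6 FPKM. The growth regulator gene Myc was at 105, 113 and 91.8 FPKM against 592, 524 and 560 FPKM, with 61.2% of its exon bases shared with other genes. The spindle checkpoint genes BubR1 (4.56 against 0.850 FPKM), Ndc80 (4.53 against 0.852) and Zw10 (9.49 against 1.54) were the 3 that met the rule in the direction of dpn OE.

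Digestive enzymes, products of mature enterocytes, were higher in dpn OE. Of 55 entries 33 were tested, and 24 met the rule in the direction of dpn OE and 3 in that of ttk-RNAi. Among all genes 14.8% and 17.8% met it. The median difference of the list was 2.67, against 0.34 over all genes. The summed FPKM of the list was 1124.5 to 1487 in dpn OE and 374 to 455 in ttk-RNAi. In Ctrl it was 1460, 490 and 391, so a single wild-type library lay within the range of dpn OE. The trypsin gene alphaTry was at 82.5, 138 and 76.7 FPKM in dpn OE and 3.34, 3.36 and 10.1 FPKM in ttk-RNAi. The fold was 17.7 (adjusted p = 2.2e-05), and 29.6 without ttk-RNAi replicate 3, which held the highest level of its group. The chymotrypsin-like gene yip7 was at 179, 79.9 and 243 FPKM against 2.08, 2.56 and 9.35 FPKM, 35.9-fold and 72.2-fold without that library, and Jon65Aiv at 211 ± 70.3 against 16.6 ± 6.61. Many of these proteases are close paralogs in clusters, so the authors' counting could split reads among them. The lysozyme gene LysX was higher in ttk-RNAi, at 1.34 against 5.63 FPKM. The 8 enterocyte markers, several of them on the same list, summed to 312 to 382 FPKM in dpn OE and 13.8 to 35.9 FPKM in ttk-RNAi. In each group 6 of 8 were at 1 FPKM or more. The gap was carried mainly by Jon65Aiii (151 against 9.57 FPKM), alphaTry and betaTry (54.5 against 0.775 FPKM). With both scalings 5 of the 8 were called higher in dpn OE and 0 in ttk-RNAi, and Mal-A1 was not called. Under the filter were LManI (0.348 against 0.0168 FPKM) and nub. The mean of nub was lower in dpn OE, at 0.645 ± 0.175 against 1.0027 ± 0.454 (SD). The share of enterocytes in the sorted cells and its part in the differences was not tested.

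Of 31 gut progenitor and enterocyte regulators 24 were tested. The rule was met by 5 in the direction of dpn OE and 9 in that of ttk-RNAi, beside 14.8% and 17.8% of all genes. GATAe, a GATA factor of gut epithelium, was at 24.0, 21.7 and 22.7 FPKM in dpn OE and 4.69, 5.02 and 4.36 FPKM in ttk-RNAi (4.86-fold, adjusted p = 6.1e-07), and Mad, the transducer of BMP signals, at 100 against 27.0 FPKM. Higher in ttk-RNAi were the bHLH gene crp (cropped, 30.1 against 174 FPKM), the nuclear receptor gene Hnf4 (6.39 against 13.9) and the POU factor gene vvl, at 0.0181 against 8.11 FPKM, a ratio of 448 with an interval of 217 to 1114 from 7 reads. The GATA factor gene grn (grain) was at 0.0209 against 7.41 FPKM, a ratio of 355 (interval 180 to 822, 8 reads). Without dpn OE replicate 3, which held most of those reads, that ratio was 791. The 6 progenitor markers matched summed to 374 to 453 FPKM in dpn OE and 825 to 993 FPKM in ttk-RNAi, with 2 called in each direction with both scalings. The higher sum of ttk-RNAi was carried by sna (3.15 against 571 FPKM), which is also on the list of neuroblast identity factors. Of the 6 markers Delta, klu and sna are given above, with wide gaps. The markers Sox21a, at 68.9 ± 32.1 against 76.8 ± 7.41, and N were not called, Sox100B was at 160 against 101 FPKM, and esg was not matched to a symbol and is not analysed here.

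Secreted immune effectors included very wide gaps in both directions. Of 45 entries 16 were tested, 4 meeting the rule in the direction of dpn OE and 6 in that of ttk-RNAi. Among all genes 14.8% and 17.8% met it. Listericin, an antibacterial protein gene, was at 2.66, 3.63 and 2.33 FPKM in dpn OE and 3887, 2666 and 3454 FPKM in ttk-RNAi (1161-fold, difference -9.75, SE 0.17, adjusted p = 8.2e-09), and Ctrl was at 2.13 FPKM. Diedel, a secreted inhibitor of the Imd pathway, lay the other way at 105, 140 and 109 FPKM against 1.22, 1.04 and 0.816 FPKM (115-fold, adjusted p = 3.2e-08). The peptidoglycan recognition genes PGRP-SD (23.3 against 116 FPKM) and PGRP-LB (38.2 against 149) were higher in ttk-RNAi, and the thioester protein gene Tep2 (15.1 against 3.42) in dpn OE. Of 19 chitinase-like growth factors and chitin deacetylases 6 were tested, 1 meeting the rule in the direction of dpn OE and 4 in that of ttk-RNAi. The former was the chitinase gene Cht2, at 5.56 against 0.0827 FPKM. Idgf4 was at 138, 146 and 135 FPKM in ttk-RNAi and held 1 read over all dpn OE libraries, a ratio of 20220 with an interval of 3629 to 798640.

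Ribosomal protein genes were higher in dpn OE as a group. Of 88 cytosolic ribosomal protein genes 81 were tested, and 28 met the rule in the direction of dpn OE and 1 in that of ttk-RNAi, with a median difference of 1.05 as deposited and 0.74 with a common median. Their summed FPKM was 189400 to 221100 in dpn OE and 114520 to 126970 in ttk-RNAi. In Ctrl it was 119100, 218730 and 113140, so a single wild-type library reached the level of dpn OE. Of 73 mitochondrial ribosomal protein genes 72 were tested, with 18 meeting the rule in the direction of dpn OE, 1 in that of ttk-RNAi and a median of 0.76. Nuclear genes of oxidative phosphorylation (71 of 95 tested, 5 and 3 meeting the rule) and proteasome subunits (32 of 48 tested, 1 and 0) had medians of 0.48 and 0.07, and with a common median the proteasome median was -0.24. Among all genes 14.8% and 17.8% met the rule in these directions. Without dpn OE replicate 2, 2 proteasome genes met the rule in the direction of ttk-RNAi. On the glycolysis list most genes that met the rule were higher in dpn OE, 4 against 1 of 16 tested from 19, beside 14.8% and 17.8% of all genes. These were Tpi (32.4 against 8.52 FPKM), Pgk (32.0 against 7.95), Gapdh2 (115 against 44.7) and the glycerol-3-phosphate dehydrogenase gene Gpdh1 (26.7 against 7.56). The hexokinase gene Hex-A, at the entry of the pathway, lay the other way at 33.0 against 95.5 FPKM.

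Of 25 heat shock genes 19 were tested. The rule was met by 6 in the direction of dpn OE and 2 in that of ttk-RNAi, beside 14.8% and 17.8% of all genes. The heat shock factor gene Hsf was at 22.8, 23.1 and 22.5 FPKM against 4.65, 5.47 and 5.42 FPKM (4.40-fold, adjusted p = 8.3e-07). The cochaperone gene DnaJ-1 was at 661, 295 and 195 FPKM against 91.2, 97.2 and 99.4 FPKM and stv (starvin) at 57.6, 32.7 and 33.6 against 8.95, 9.06 and 9.30 FPKM, with dpn OE replicate 1 highest for both. Hsp70Bb, one of several near-identical Hsp70 copies, was at 8.07 against 0.698 FPKM and is uncertain for that reason. The constitutive chaperone gene Hsc70-4 was higher in ttk-RNAi at 782 against 2197 FPKM, as was Hsp67Bc at 45.0, 12.99 and 14.7 against 77.4, 78.5 and 74.6 FPKM, where the fold of 3.17 became 5.55 without dpn OE replicate 1.

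Epithelial junction genes were mostly higher in ttk-RNAi. Of 30 entries 29 were tested, with a median difference of -0.62. The rule was met by 10 in the direction of ttk-RNAi and 1 in that of dpn OE, beside 17.8% and 14.8% of all genes. That 1 gene was cold (6.07 against 1.75 FPKM), and the count in the direction of dpn OE was 0 without dpn OE replicate 2 and 2 without dpn OE replicate 3. The septate junction genes Nrg (neuroglian, 27.5, 26.8 and 23.6 against 260, 234 and 254 FPKM) and cora (coracle, 15.5 against 99.2 FPKM) were in this group, as was Fas3 at 0.509 ± 0.0769 against 27.2 ± 1.27 (53.6-fold). E-cadherin (shg) was called the other way, at 27.3 against 10.5 FPKM, under the size rule with a common median.

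Markers of cells that the sort could hold beside progenitors were read for both groups. Haemocyte and fat body markers summed to 0.197 to 0.314 FPKM in dpn OE and 0.936 to 1.53 FPKM in ttk-RNAi, with 0 of 8 at 1 FPKM or more in either group. Germline markers summed to 0.309 to 0.488 and 0.876 to 1.27 FPKM, again with 0 of 3 at 1 FPKM. Visceral muscle markers summed to 3.07 to 7.15 and 12.8 to 14.2 FPKM, and Mhc, which defines muscle, was at 0.0304 and 0.0502 FPKM. Of the 3 glial markers, moody alone reached 1 FPKM (112 against 159 FPKM), and repo, which defines glia, was at 0.0547 and 0.0742 FPKM. The chitin deacetylase gene verm alone carried the tracheal sum of 10.9 to 12.1 FPKM in ttk-RNAi. Of 26 muscle entries 8 were tested, with 0 and 2 meeting the rule in the directions of dpn OE and ttk-RNAi. Among all genes 14.8% and 17.8% met it. Of 24 haemocyte and fat body entries 5 were tested (1 and 3, or 0 in the direction of dpn OE without its replicate 3), of 17 trachea and glia entries 8 (1 and 4), and of 30 piRNA and germline entries 16 (4 and 1). Among these, the glutamate transporter gene Eaat1 was at 0.0860, 0.497 and 0.0763 FPKM in dpn OE and 57.7, 55.1 and 56.7 FPKM in ttk-RNAi, 257-fold, or 696-fold without dpn OE replicate 2. The FGF ligand gene bnl (branchless) was at 0.545 against 14.4 FPKM. Neuroblast markers summed to 24.3 to 46.7 FPKM against 320 to 356, a gap carried by dpn itself, whose values are uncertain, and by wor, whereas mira was not called and ase was near 0 in both groups. The 4 neuronal markers summed to 7.53 to 7.79 against 30.2 to 33.9. The 10 enteroendocrine markers summed to 3057 to 4683 FPKM in dpn OE, chiefly NPF, and to 945 to 1078 FPKM in ttk-RNAi, although 3 of the 10 were called higher in dpn OE and 5 in ttk-RNAi with both scalings.

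Genes present in each library of 1 group and near 0 in the other were counted as those at 10 FPKM or more in all 3 libraries of a group and under 0.5 FPKM in all 3 of the other. There were 74 such genes high in ttk-RNAi and 10 high in dpn OE, and the lower depth of dpn OE makes values near 0 less precise there. The largest of all differences belonged to lncRNA:CR44272, a long non-coding RNA, at 0.311, 0.307 and 0 FPKM in dpn OE and 3584, 3444 and 3330 FPKM in ttk-RNAi, a ratio of 16763 (95% counting interval 7701 to 45677, 6 reads). Another, lncRNA:CR30009, was at 0.134 against 1546 FPKM, and the protein-coding gene CG13460 at 0.0525 against 1136 FPKM, a ratio of 21645 (interval 7407 to 104960, 3 reads). In Ctrl these 3 were at 24.6, 4.73 and 0.475 FPKM. VhaAC45RP, an accessory subunit gene of the vacuolar proton pump, was at 0.300, 0.159 and 0.430 against 126, 128 and 126 FPKM. On the side of dpn OE, whe was at 276, 96.2 and 425 FPKM against 0.0451, 0.0417 and 0.0823 FPKM, a ratio of 4720 (interval 1844 to 17325, 4 reads). CG16826, CG45080 and CG33109 shared its pattern over the dpn OE libraries, with replicate 2 lowest at 44.4, 39.0 and 17.3 FPKM and the others between 69.4 and 260 FPKM. In Ctrl whe was at 0.120, 329 and 1.42 FPKM and CG45080 at 0.559, 181 and 1.21 FPKM, so a single wild-type library lay within their dpn OE range. The fold of CG45080 moved from 527 to 343 without dpn OE replicate 3. The cytochrome P450 gene Cyp4p2 was steadier, at 51.3, 53.5 and 44.5 against 0.0550, 0.0203 and 0.0905 FPKM, as was pyd3, a gene of pyrimidine breakdown, at 39.5 against 0.247 FPKM.

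By chromosome arm, genes on X and on chromosome 4 stood below those on chromosomes 2 and 3 in dpn OE relative to ttk-RNAi. Over the 1326 X-linked genes tested the median difference was 0.01, and over the 6214 genes on arms of chromosomes 2 and 3 it was 0.39, while with a common median the values were -0.25 and 0.14. The gap of -0.38 between X and these arms was -0.23 with a pseudocount of 5 and -0.041 with no filter on low values. Of the X-linked genes 32.1% were called higher in dpn OE and 40.4% in ttk-RNAi with both scalings, against 41.6% to 46.8% and 25.8% to 30.3% on the arms of chromosomes 2 and 3. On chromosome 4, with 69 genes tested, those shares were 29.0% and 39.1% and the median difference was 0.03. Within each library, the median of X-linked genes minus that of autosomal genes was -0.35, -0.28 and -0.33 in dpn OE and -0.08, 0.01 and -0.06 in ttk-RNAi. The groups did not overlap. That alone fixes the exact two-sided permutation p at 0.1, the smallest that 3 against 3 libraries can give, so this p adds nothing to the separation. In Ctrl the values were -0.11, 0.01 and -0.03. The dosage compensation RNAs roX1 and roX2, which coat the male X, were under the filter, at 0.0706 to 0.186 and 0.0282 to 0.0834 FPKM in dpn OE and 0.815 to 1.04 and 0.396 to 0.522 FPKM in ttk-RNAi. The sex of the flies is not in the labels, and its part in this difference was not tested.

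**Figure D5:**
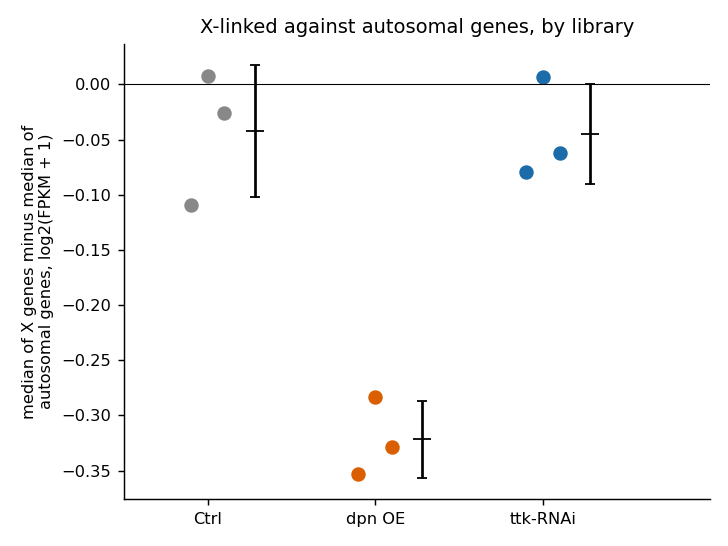
Median level of X-linked genes minus that of autosomal genes, on log2(FPKM + 1), in each Ctrl, dpn OE and ttk-RNAi library. Points are libraries, and bars beside them the mean ± SD of 3; the dpn OE libraries, at -0.35 to -0.28, lie below all of the others.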

How the data were processed

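The authors deposited 1 FPKM value per gene and library, normalized to gene length and library total. The submitters' processing notes name STAR 2.6.1a, the build BDGP6 and DESeq2, with no counting tool or strand setting. Among protein-coding genes that share every exon base with antisense genes, 63 of 64 (98.4%) were at 0 in each library, against 2.85% of genes sharing none, so the counting did not use strand. Of 17558 identifiers 17252 took symbols from BDGP6.54, and 306 had no match and stayed in the tests. Depth was recovered from the smallest steps of low values, 97.8% to 98.2% of which were whole reads within 0.02 reads.

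Groups came from the titles. The 6 libraries were fitted with limma 3.58.1 in R 4.3.3 on log2(FPKM + 1), with a variance trend and 4 residual degrees of freedom, two-sided, with Benjamini-Hochberg adjustment over 7771 genes, as deposited and with columns scaled to a common median. The fit was also run on simulated data, and no result given here rests on that run. Samples were not paired by number, since the labels give no batch or sorting day. Deviations of same-numbered libraries correlated at 0.02 at most, which cannot show whether they shared a preparation. Named genes are those of the group labels, the 8 largest differences each way among called genes without overlap and with a mean of at least 10 FPKM, the 2 largest called members each way of each list with a mean of at least 5 FPKM, fixed names, and genes high in 1 group and near 0 in the other. Other members were named after their values were seen. The comparison and the 31 lists were chosen with earlier results of these data known. Intervals of folds are 95% exact Poisson intervals of the reads of the lower group, given where it held at most 9 reads. No genome sequence was used here. Alternatives were other scalings, pseudocounts and filters, other variance models, a fit of all 15 libraries, a replicate block and leaving out each library.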

Additional observations from a re-analysis of the deposited data

How the results depend on the processing

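Over 17 settings, named genes gave 2268 values, of which 2239 kept direction and side of the threshold, 20 fell below it, 4 passed it and 5 reversed. The reversals were in genes that were not called, N with median-of-ratios scaling (-0.0798) and AstC with quantile normalization (0.11) and without ttk-RNAi replicate 1 (0.02), ttk-RNAi replicate 3 (0.0023) or dpn OE replicate 2 (0.11), where values without 1 library spanned -0.2188 to 0.1127. The cause was not tested. Without any filter 15399 genes were tested and 4529 were higher in ttk-RNAi. With a filter at 5 FPKM fewer genes (5053) were tested, and 4122 were called, 2596 higher in dpn OE and 1526 in ttk-RNAi. Leaving out 1 library gave 5808 to 6550 calls, 3629 to 4189 higher in dpn OE and 2179 to 2361 in ttk-RNAi, and with a common median 5604 to 6309. By the size rule these ranges were 1127 to 1188 and 1357 to 1419. Genes high in 1 group and near 0 in the other, 10 and 74 with all libraries, ranged from 10 to 14 for dpn OE and from 75 to 78 for ttk-RNAi. Leaving out a library cannot lower these counts, since every library kept must pass, so the ranges do not speak to stability. With a common median the counts were 7 and 87. The fit of all 15 libraries called 4950 genes and quantile normalization 6210. The X minus autosome difference, chosen for these settings after seeing the data, was -0.38, and -0.41 to -0.39 without 1 library. It was -0.46 and -0.23 with pseudocounts of 0.1 and 5, -0.43 with the filter at 5 FPKM and -0.0413 without a filter, where many genes at or near 0 enter. The replicate block called 6244 genes, 3903 and 2341, and same-numbered libraries did not deviate together. With the block N (adjusted p = 0.033) and mira (adjusted p = 0.048) were called higher in dpn OE. The same fit called N higher in dpn OE without dpn OE replicate 1 (0.50, adjusted p = 0.0031). It called mira so without dpn OE replicate 3 (0.87, adjusted p = 0.00031). With more reads in ttk-RNAi, values near 0 are least certain in dpn OE.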

Other observations

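Further groups were picked after their values were seen, and their counts use the same calls per gene, with no test of a group. Nucleolar and RNA polymerase I genes, which make ribosomal RNA and assemble ribosomes, were higher in dpn OE. Of 25 tested 12 met the size rule in the direction of dpn OE and 0 in that of ttk-RNAi, beside 14.8% and 17.8% of all genes. The median difference was 1.22. The pseudouridylation gene Gar1 was at 482, 613 and 614 FPKM in dpn OE and 53.4, 60.8 and 63.2 FPKM in ttk-RNAi, and Nnp-1 at 33.6 against 4.33 FPKM. Circadian clock genes lay the same way, 4 of 8 tested meeting the rule. The photoreceptor gene cry was at 42.3, 45.6 and 47.0 against 2.31, 2.33 and 3.36 FPKM, tim at 31.2 against 2.94, cyc at 36.6 against 8.15 and vri at 40.5 against 15.2 FPKM. In Ctrl cry was at 27.2 FPKM, and the hour of dissection is not in the labels. Of 47 cytochrome P450 and glucuronosyltransferase genes tested, 16 met the rule in the direction of dpn OE and 3 in that of ttk-RNAi.

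Guidance and adhesion receptors of the nervous system were mostly higher in ttk-RNAi. Of 83 genes 35 were tested, 22 meeting the rule in that direction and 3 in that of dpn OE, beside 17.8% and 14.8% of all genes. The median difference was -1.68. The adhesion receptor gene rst (roughest) was at 1.43, 1.70 and 2.90 FPKM in dpn OE and 182, 161 and 158 FPKM in ttk-RNAi, and robo3, a receptor for Slit, held 1 read over the dpn OE libraries and was at 23.0, 23.5 and 22.5 FPKM in ttk-RNAi. A pair of closely related semaphorin genes split, Sema2b at 1.78 against 58.7 FPKM and Sema2a at 58.3 against 7.26 FPKM. Of 221 genes of sensory receptor and channel families 14 were tested, and 6 met the rule, each higher in ttk-RNAi, beside 17.8% of all genes. Among them were the rhodopsin gene Rh4 (0.0981 against 15.5 FPKM), the fructose receptor gene Gr43a (0.401 against 15.9) and ppk26, listed at 0 in each dpn OE library and at 11.2, 13.2 and 12.5 FPKM in ttk-RNAi. Rh4, Gr43a and ppk26 were under 1 FPKM in every dpn OE library. They passed the filter only through ttk-RNAi, which set their direction. Of 216 long non-coding RNA genes tested, 91 met the rule in the direction of ttk-RNAi and 19 in that of dpn OE, with a median difference of -0.68.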
